A study of Mus musculus with 8 samples.

Results

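A group of 10 transcripts known from the dendrites and synapses of neurons, Nrgn, Camk2a, Camk2n1, Ddn, Shank1, Map2, Dlg4, Ppp1r9b, Psd and Arc, was followed through single nuclei RNA sequencing of the ventricular-subventricular zone (V-SVZ), the neural stem cell (NSC) niche along the lateral ventricles. The members were taken by symbol, and all 10 were found among the 32285 gene identifiers of the deposited matrices. The 8 libraries came from 4 Tsc2wt/wt and 4 Tsc2mut/mut mice at postnatal day 90, with 1 mouse per library. The mutant mice carried floxed Tsc2 alleles that were recombined by Cre, and both genotypes carried a Rosa26 tdTomato reporter that marks recombined cells. From every mouse 100000 tdTomato-positive nuclei were sorted. Whether Cre came from electroporated plasmid or from a tamoxifen-induced Nestin driver is not given for these nuclei in the sources used here.

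Most mRNAs stay near the cell body, but a set of neuronal mRNAs is carried along microtubules into dendrites and translated near synapses. Nrgn encodes neurogranin, which binds calmodulin, and Camk2a encodes the alpha subunit of the kinase that calmodulin activates. Camk2n1 encodes an inhibitor of that kinase. Shank1 and Dlg4 (PSD-95) encode scaffolds of the postsynaptic density, Ddn encodes dendrin, Ppp1r9b encodes spinophilin, Psd encodes an exchange factor for the GTPase ARF6, Map2 encodes the microtubule protein that marks dendrites, and Arc is an immediate early gene whose mRNA travels to active synapses. Because these mRNAs lie in processes outside the nucleus, their level in a sorted nucleus can be set against that in material that is not nuclear.

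The genes differ widely in length by the GENCODE M21 annotation of GRCm38. Nrgn spans 8.4 kb (chr9:37544492-37552904, minus strand), Camk2n1 spans 5.8 kb (chr4:138454314-138460123, plus strand) and Arc spans 3.5 kb (chr15:74669083-74672570, minus strand). Map2 is the longest, with 267.3 kb (chr1:66175273-66442583, plus strand), followed by Camk2a with 62.5 kb and Shank1 with 50.3 kb. The spans of Dlg4, Ppp1r9b, Psd and Ddn are 30.6, 15.9, 15.1 and 5.7 kb. A counted gene on the opposite strand overlaps 4 of the 10 (Ddn, Shank1, Map2 and Psd), and none overlaps on the same strand.

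Each library held 60000 barcodes and from 11182335 to 36773832 unique molecular identifiers (UMIs). A total of 37881 barcodes had at least 300 genes, and these were divided by the share of their UMIs from the 13 mitochondrial genes. Nucleus-like barcodes, with under 20% mitochondrial UMIs, numbered 191 to 942 per mouse, and mitochondria-rich barcodes, with at least 35%, numbered 1530 to 8543. Barcodes with at least 100 and fewer than 200 genes, called low-count barcodes here and taken as a stand-in for RNA outside nuclei, numbered 7774 to 36622. Mitochondrial genes made up 4.98% to 8.90% of the summed UMIs of nucleus-like barcodes, 45.7% to 53.5% of mitochondria-rich barcodes and 48.0% to 49.8% of low-count barcodes. Median UMIs per barcode were 1927 to 4432, 865 to 1321.5 and 275 to 409 in these classes. Any pair of libraries shared 1 to 15 barcodes with at least 300 genes, and 0 or 1 nucleus-like barcode. The library of Tsc2mut/mut replicate 4 stood apart, as most of its nucleus-like barcodes (182) were choroid plexus-like. Malat1 reached 1834 UMIs per 1000000 non-mitochondrial UMIs (CPM) in the sum of its nucleus-like barcodes, against 23946 to 38221 in the other mice. Choroid plexus-like barcodes of other mice were also low in Malat1, with 228 CPM in a cluster of 302 that held 0 barcodes of this library. Tsc2 itself, which the mutant alleles target, measured 13.1 to 17.1 CPM in nucleus-like sums of Tsc2wt/wt mice and 10.1 to 23.6 CPM in those of Tsc2mut/mut mice. Counts per gene do not show whether the floxed exons were deleted, so they do not check the genotype labels.

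All 10 members were far lower in nucleus-like than in mitochondria-rich barcodes of the same mice. Levels are CPM of the UMIs summed per mouse and class. Together the members took 16210 to 24441 CPM in mitochondria-rich barcodes (median 19070) and 881 to 2258 CPM in nucleus-like barcodes (median 1556). In such sums, fewer barcodes that hold a transcript and fewer copies in each cannot be told apart.

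Nrgn, the neurogranin transcript, measured 2364, 2280, 2328 and 2987 CPM in the mitochondria-rich barcodes of Tsc2wt/wt mice 1 to 4 and 3141, 2512, 2393 and 2257 CPM in those of Tsc2mut/mut mice. In nucleus-like barcodes of the same mice it measured 47.6, 167, 154 and 85.6 CPM, and 185, 91.9, 204 and 87.9 CPM. The highest nucleus-like value lay far below the lowest mitochondria-rich value. The log2 fold of mitochondria-rich over nucleus-like barcodes was 5.02 ± 0.35 (SE), 32.5-fold, with an adjusted p of 9.8e-08 in edgeR's quasi-likelihood test with mouse as a term. This fold had rank 7 among the 10878 genes tested.

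Camk2a, the kinase subunit, ranged from 2739 to 4914 CPM in mitochondria-rich barcodes (median 3241) and from 58.1 to 389 CPM in nucleus-like barcodes (median 187). Camk2n1, its inhibitor, ranged from 6602 to 10119 CPM and from 279 to 727 CPM. Their log2 folds were 4.86 ± 0.35 and 4.71 ± 0.34. Dendrin and the ARF6 exchange factor differed about as much as Nrgn, with log2 folds of 4.99 ± 0.36 for Ddn and 4.97 ± 0.36 for Psd. The scaffold Shank1 gave 4.75 ± 0.32, and the activity-induced Arc gave 4.63 ± 0.30. Ppp1r9b followed at 4.19 ± 0.28. Arc had 83 UMIs in all nucleus-like barcodes and did not pass the filter on low counts in a fit of these alone. It entered this test through its mitochondria-rich sums, where it is high.

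Dlg4 and Map2 differed least. Dlg4 measured 756, 672, 818 and 840 CPM in the mitochondria-rich barcodes of Tsc2wt/wt mice and 668, 696, 562 and 511 CPM in those of Tsc2mut/mut mice, against 65.4, 116, 115 and 78.5 CPM and 119, 94.2, 99.2 and 43.9 CPM in nucleus-like barcodes. The classes did not overlap, and the log2 fold was 3.55 ± 0.26, 11.7-fold. Map2 measured 1241, 1370, 1319 and 1454 CPM and 1539, 1253, 1406 and 1198 CPM in mitochondria-rich barcodes, against 363, 513, 594 and 499 CPM and 555, 312, 525 and 64.2 CPM in nucleus-like barcodes. Its log2 fold was 2.44 ± 0.31, 5.41-fold, the smallest of the 10 members. The lowest nucleus-like value of Map2 came from Tsc2mut/mut replicate 4, and without that mouse the fold was 2.30, against 5.14 for Nrgn.

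Adjusted p-values of the members ran from 7.42e-08 to 1.06e-05 in that edgeR test, in which 39.4% of all genes were called higher and 39.6% lower in mitochondria-rich barcodes. The median log2 fold was 4.73 over the members and 0.02 over all genes tested. Each member was higher in the mitochondria-rich barcodes of 8 of 8 mice, and for each the exact two-sided sign-flip test within mice gave p = 0.00781, the smallest that 8 mice allow. The classes overlapped for Arc alone. The share of all genes that were higher in 8 of 8 mice, or whose classes did not overlap, is not given here. With scaling by library size alone the median of all genes fell to -0.61 and all folds fell with it, to 4.39 for Nrgn and 1.78 for Map2. The calls then moved from 4285 higher and 4311 lower genes to 2882 higher and 5575 lower.

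**Figure D1:**
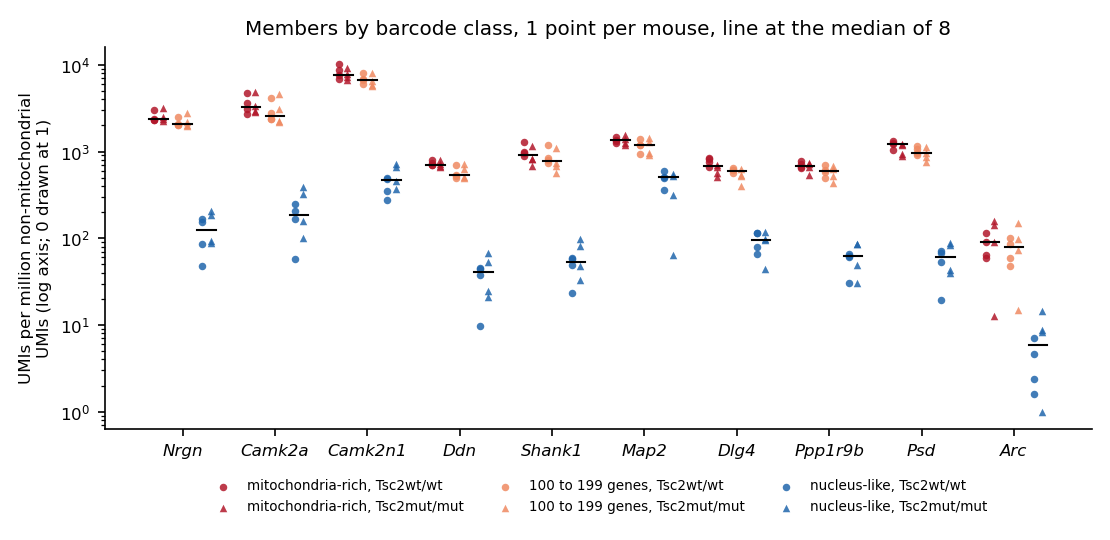
Level of each member in CPM (log axis, zero drawn at 1) in the mitochondria-rich barcodes, the low-count barcodes and the nucleus-like barcodes of each mouse, with circles for Tsc2wt/wt, triangles for Tsc2mut/mut and a line at the median of 8 mice. For Nrgn the medians are 2378, 2055 and 123, and for Map2, where the classes lie closest, they are 1345, 1188 and 506.

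Other neuronal transcripts were compared by lists in the same fit. Of 17 other dendritic and postsynaptic mRNAs tested, 11 were higher and 3 lower in mitochondria-rich barcodes (median log2 fold 1.78). Kif5a, a kinesin motor, led with 4.74 ± 0.33, followed by the scaffold Dlgap3 with 4.55 ± 0.31, the kinase Itpka with 4.36 ± 0.27 and the scaffold Homer2 with 3.53 ± 0.27. All 16 presynaptic genes were higher (median 3.46), led by the complexins Cplx1 at 4.86 ± 0.30 and Cplx2 at 4.65 ± 0.31. Of 12 striatal projection neuron genes tested 10 were higher and 1 lower (median 3.43), among them the enkephalin precursor Penk at 4.48 ± 0.31. Of 12 excitatory neuron genes of cortex and hippocampus 10 were higher and 1 lower (median 3.35), among them the neuropeptide precursor Cck at 4.92 ± 0.31 and the vesicular glutamate transporter Slc17a7 at 4.79 ± 0.28. In a fit of nucleus-like barcodes alone, 7 striatal and 7 excitatory genes passed the filter on low counts. Other genes of these lists thus entered the class test through their mitochondria-rich sums, and their calls partly follow from that filter.

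Cytoplasmic transcripts of astrocytes were also higher in mitochondria-rich barcodes. Of 12 astrocyte transcripts known from the cytoplasm 11 were higher in mitochondria-rich barcodes and 0 lower (median 2.83), led by the glycolytic enzyme Aldoc at 4.19 ± 0.28 and the metallothionein Mt1 at 3.81 ± 0.30. Of 7 long noncoding RNAs retained in nuclei 5 were lower and 1 higher (median -2.76), and Kcnq1ot1, Malat1 and Neat1 stood at -4.55 ± 0.52, -4.53 ± 0.54 and -4.49 ± 0.37. Presynaptic, striatal, excitatory and astrocyte lists thus also stood higher in mitochondria-rich barcodes, with medians from 2.83 to 3.46 against 4.73 for the members. The other dendritic and postsynaptic list stood below all of these, with a median of 1.78 and 3 of 17 genes lower. The members were chosen with earlier results of these data known.

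**Figure D2:**
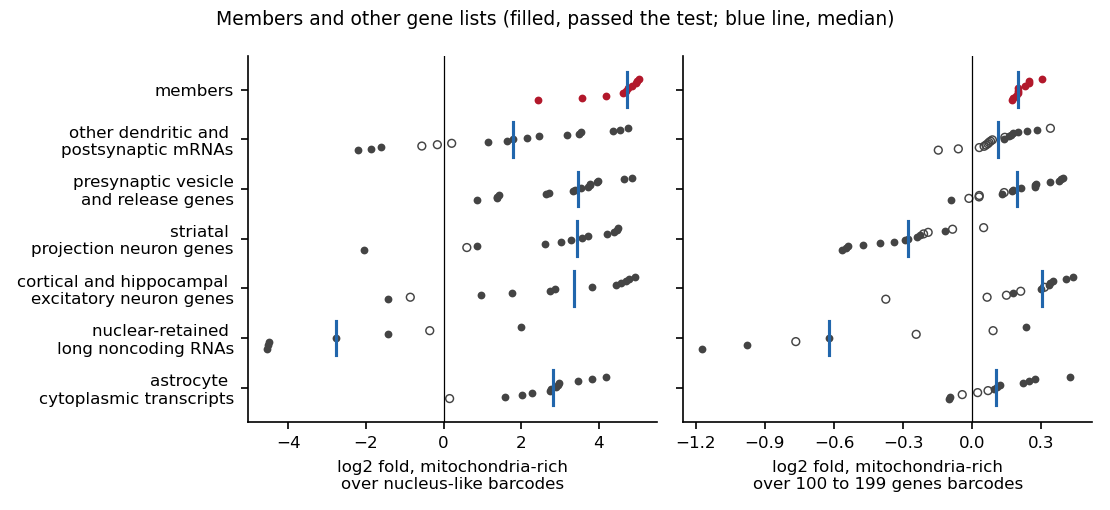
Log2 fold change of mitochondria-rich barcodes over nucleus-like barcodes (left) and over low-count barcodes (right) for each tested gene of the members (red) and 6 other lists (rows), with filled points for genes that passed an adjusted p of 0.05, a blue line at each list's median and different scales in the 2 panels. The members lie between 2.44 and 5.02 on the left and between 0.17 and 0.30 on the right, and the nuclear long noncoding RNAs reach -4.55 on the left.

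The members were then examined in low-count barcodes, which held 477 to 2434 CPM of the nuclear RNA Malat1. Nrgn measured 2006, 2029, 2081 and 2527 CPM in Tsc2wt/wt mice 1 to 4 and 2775, 1990, 2198 and 2006 CPM in Tsc2mut/mut mice, so the values fell within or just below the range of the mitochondria-rich barcodes. All members together took 13466 to 21117 CPM (median 16029). Mitochondria-rich barcodes still held more of each member. The log2 fold over low-count barcodes was 0.17 ± 0.03 for Nrgn, 0.25 ± 0.03 for Camk2a, 0.23 ± 0.03 for Camk2n1 and 0.30 ± 0.04 for Ddn, the largest. The whole range of 0.17 to 0.30 equals 1.13- to 1.23-fold. All 10 passed the edgeR test (adjusted p 1.45e-08 to 0.0127), in which 7.48% of genes were called higher and 8.65% lower in mitochondria-rich barcodes.

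The median log2 fold was 0.20 over the members and -0.00 over all 10795 genes tested. In the exact sign-flip test 8 members were higher in mitochondria-rich barcodes of 8 of 8 mice (p = 0.00781), Ppp1r9b in 7 (exact p = 0.0156) and Arc in 6 (exact p = 0.0938). The share of all genes that were higher in 8 of 8 mice is not given here. The ranges of the classes over mice overlapped for every member. The call of Arc (0.20 ± 0.06) was lost with DESeq2, without Tsc2mut/mut replicate 2 (log2 fold 0.13) and against the 20000 barcodes with the fewest UMIs, with adjusted p-values of up to 0.213. Against those 20000 barcodes the log2 folds were up to 0.49 for Ddn, and 0.36 for Nrgn. With scaling by library size alone, the share of calls that were higher moved from 46.4% to 59.6%.

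The lists parted in this comparison. Of 16 presynaptic genes 11 were higher and 1 lower in mitochondria-rich barcodes (median 0.20), led by the syntaxin Stx1a at 0.39 ± 0.05 and the synapsin Syn1 at 0.39 ± 0.05. Of 12 excitatory neuron genes 7 were higher and 0 lower (median 0.31), among them Slc17a7 at 0.44 ± 0.05 and Cck at 0.34 ± 0.04. Of 18 other dendritic mRNAs 7 were higher and 0 lower (median 0.11), led by Cyfip2, a partner of the fragile X protein, at 0.28 ± 0.04. Of 15 striatal projection neuron genes, by contrast, 0 were higher and 11 lower (median -0.28), led by the dopamine receptor Drd2 at -0.57 ± 0.15 and the phosphodiesterase Pde10a at -0.55 ± 0.09. Of 12 astrocyte transcripts 7 were higher and 2 lower, with the glutamate transporter Slc1a3 highest at 0.43 ± 0.03, and of 7 nuclear long noncoding RNAs 1 was higher and 3 lower, with Malat1 lowest at -1.17 ± 0.30.

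The mix of members was close to the same in both kinds of barcode outside the nucleus-like class. Leaving Map2 aside, Nrgn made up a median of 14.3% of the members' UMIs in mitochondria-rich barcodes, 14.2% in low-count barcodes and 10.8% in nucleus-like barcodes. Camk2n1 made up 43.6%, 43.3% and 41.6%, and Camk2a made up 19.5%, 17.9% and 18.6%. The share of Dlg4 was 3.81%, 3.69% and 8.78%, so it was the nucleus-like mix that differed. There Dlg4 and Ppp1r9b (3.71%, 3.75% and 5.35%) had larger shares. Nrgn, Psd (6.26%, 6.28% and 5.22%) and Ddn (4.08%, 3.76% and 3.18%) had smaller ones. These shares are medians over 8 mice and were not tested. Nucleus-like and mitochondria-rich ranges over mice overlapped for Nrgn (8.9% to 14.3% against 12.5% to 15%), Psd and Ppp1r9b. For Ddn the nucleus-like range (1.81% to 4.78%) covered the mitochondria-rich range (3.49% to 4.4%). For Dlg4 the ranges did not overlap (5.38% to 12.2% against 3.03% to 4.53%).

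Single barcodes were examined next, thinned to a fixed number of non-mitochondrial UMIs so that depth did not set the result. At 100 UMIs, Nrgn was found in 20.5% of mitochondria-rich barcodes (19.3% to 26.1% over mice), in 17.7% of low-count barcodes (17.0% to 23.2%, with 454 shallower barcodes left out) and in 2.19% of nucleus-like barcodes. Microglia-like nuclei gave 1.61% (0% to 10.2% over 7 mice). The source of Nrgn in either kind of nucleus was not tested, so neither share is read as expression here. Without thinning the shares were 67.5%, 29.7%, 25.9% and 19.0%, at median depths of 466 to 624, 141 to 216, 1760 to 4117 and 837 to 1584 non-mitochondrial UMIs. The inhibitor transcript was more widely found. Camk2n1 was found in 49.9%, 46.0% and 6.62% of mitochondria-rich, low-count and nucleus-like barcodes at 100 UMIs, against 9.09% of microglia-like nuclei. For Map2 the shares were 12.4%, 10.7% and 5.15%, against 2.04% of microglia-like nuclei.

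The spread of each member over the mitochondria-rich barcodes of a mouse was measured next. At 250 UMIs per barcode the variance of the count of Dlg4 was 0.999 times its mean, where 1 is the value for Poisson counts, and the ratio was 1.02 for Ppp1r9b, 1.03 for Ddn and Shank1, 1.04 for Map2 and Psd, and 1.01 for Arc (medians of 8 mice). Camk2a gave 1.14 (1.06 to 1.24), Nrgn gave 1.17 (1.11 to 1.21) and Camk2n1 gave 1.32 (1.16 to 1.55), so that these 3 were above 1 in every mouse. The presynaptic gene Snap25 gave 1.04. Transcripts of glia gave 1.71 (1.45 to 2.02) for the lipoprotein gene Apoe and 1.52 (1.35 to 1.93) for the glutamate transporter Slc1a2. The ratio also depends on the mean count, and at a low mean it lies near 1 whatever the spread. Camk2n1 and Apoe had similar means of 1.87 and 1.98 UMIs per barcode, while Nrgn had a mean of 0.570.

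The frequency of barcodes with a pair of members was set against the product of their separate shares, in mitochondria-rich barcodes at 250 UMIs. Barcodes with both Nrgn and Camk2a were 1.03 times as frequent as the product of the shares (0.996 to 1.07 over mice), and those with Camk2a and Camk2n1 were 1.02 times as frequent. At 100 UMIs these ratios were 1.05 (1.02 to 1.12) and 1.06 (1.01 to 1.21). In nucleus-like barcodes at 250 UMIs, measured in 2 mice, the ratio was 1.57 in one and 1.63 in the other for Nrgn with Camk2n1, and 1.38 and 1.74 for Camk2a with Camk2n1. Over all mice only 62 and 82 nucleus-like barcodes held both genes of these pairs. The ratio cannot exceed the inverse of the larger share, so it has less room in mitochondria-rich barcodes, where Camk2n1 was more widely found. The ratios of the classes are therefore not compared. At 250 UMIs in mitochondria-rich barcodes, for Nrgn with the astrocyte gene Slc1a2 the ratio was 0.984 (0.971 to 1.00). It was 0.987 for Nrgn with Apoe, 1.02 (0.914 to 1.23) for Nrgn with Snap25 and 1.01 for Apoe with Slc1a2. At 100 UMIs the last 2 ratios were 1.08 (0.929 to 1.71) and 1.05. The pairs of members were thus not set apart from every other pair. The highest count of Nrgn in any mitochondria-rich barcode was 20, without thinning, and that of Camk2n1 was 89.

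**Figure D3:**
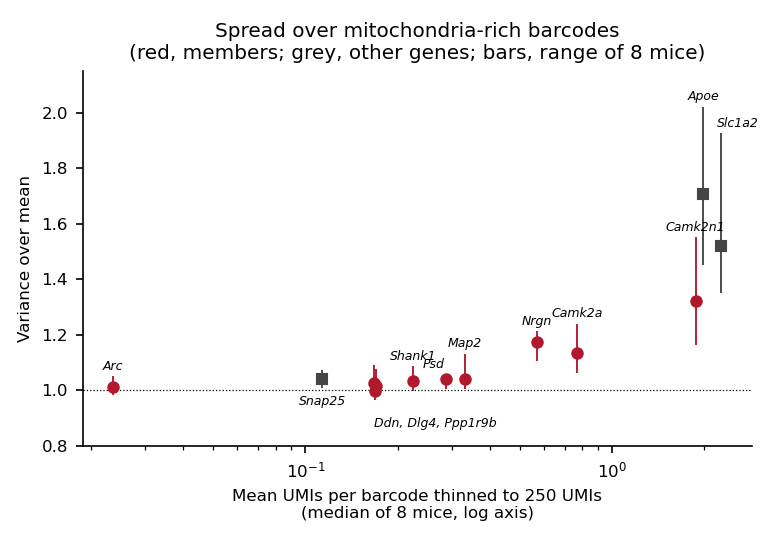
Ratio of variance to mean of the UMI count per mitochondria-rich barcode, thinned to 250 non-mitochondrial UMIs, against the mean count (log axis), for the 10 members (red circles) and the genes Apoe, Slc1a2 and Snap25 (grey squares), each at its median of 8 mice with a bar for their range and a dotted line at 1, the Poisson value. Nrgn, Camk2a and Camk2n1 lie at 1.17, 1.14 and 1.32 and the other members between 0.999 and 1.04, while Apoe, Slc1a2 and Snap25 lie at 1.71, 1.52 and 1.04.

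Most of these genes are known as neuronal, so their level was measured in nuclei of other cell types, where the source of the transcripts was not tested. Nucleus-like barcodes were clustered without the members, and 3082 barcodes in clusters with the markers of NSC/astrocytes, oligodendrocytes, oligodendrocyte progenitors, microglia, ependymal, choroid plexus or endothelial cells are called non-neuronal nuclei here. The choroid plexus-like barcodes among them held little Malat1, and whether they are nuclei was not tested. In the non-neuronal nuclei the 10 members together took 799 to 2112 CPM (median 1104). Nrgn measured 44.8, 163, 47.9 and 62.2 CPM in the non-neuronal nuclei of Tsc2wt/wt mice 1 to 4 and 187, 89.0, 204 and 88.0 CPM in those of Tsc2mut/mut mice. Every mouse had the transcript in these nuclei, at levels that spread widely between mice and stayed below all mitochondria-rich values.

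Against mitochondria-rich barcodes all 10 members were lower in non-neuronal nuclei. Arc, with 68 UMIs in these nuclei, again entered the test through its mitochondria-rich sums. The log2 fold of mitochondria-rich over non-neuronal was 5.28 ± 0.42 for Nrgn, 5.27 ± 0.42 for Camk2a, 3.65 ± 0.29 for Dlg4 and 2.67 ± 0.31 for Map2, with a median of 4.91 over the members and 0.04 over all genes. Adjusted p-values ran from 4.84e-08 to 3.96e-06 in edgeR's test, in which 39.4% of genes were called higher and 39.5% lower. Each member was higher in the mitochondria-rich barcodes of 8 of 8 mice (exact sign-flip p = 0.00781). The share of all genes that were is not given here. Scaling by library size alone moved the share of calls that were higher from 49.9% to 34.7% and the median of all genes to -0.58, without ending a call of a member. Of the other lists, 11 of 17 dendritic mRNAs were higher in mitochondria-rich barcodes and 3 lower (median 2.22). Also higher were 16 of 16 presynaptic genes (median 4.10), 10 of 12 striatal and 10 of 12 excitatory genes (1 lower in each) and 11 of 12 astrocyte transcripts. In a fit of non-neuronal nuclei alone, 5 striatal and 6 excitatory genes passed the filter on low counts, so others entered through their mitochondria-rich sums. Long noncoding RNAs of nuclei split, with 3 of 7 higher and 3 lower.

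To compare genes and cell types on one scale, each member's share of all UMIs was written as a percent of its share in the low-count barcodes of the same mouse. All UMIs include mitochondrial ones, which made up 48.0% to 49.8% of low-count and 4.98% to 8.90% of nucleus-like sums. These percentages therefore lie above the ratios of CPM. In CPM, Map2 averaged 492 in nucleus-like and 1179 in low-count barcodes of Tsc2wt/wt mice, and 364 and 1142 in those of Tsc2mut/mut mice. In nucleus-like barcodes Nrgn stood at a median of 10.2% (4.38% to 16.4% over 8 mice), mitochondrial genes at 15.3% and Dlg4 at 32.8%. Map2 stood at 70.2%. The mitochondrial value is bounded by the limit that defined the class.

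In NSC/astrocyte-like nuclei, measured in 7 mice with at least 10 such nuclei, Nrgn stood at 7.57% (3.26% to 16.1%), Camk2a at 10.0%, Camk2n1 at 12.4% and mitochondrial genes at 12.2%. Dlg4 reached 44.0% (28.5% to 57.8%) and Map2 reached 95.0% (88.2% to 148%). The percentage of Dlg4 was above the median of the other members in 7 of 7 mice, by 2.45 to 8.24 times, and that of Map2 by 4.71 to 27.7 times. Neither was particular to these nuclei. Both were above that median in 6 of 6 mice in ependymal-like nuclei (median ratios 2.53 and 3.42) and in 3 of 3 in oligodendrocyte progenitor-like nuclei (1.73 and 11.1). In oligodendrocyte-like nuclei Map2 was above it in 7 of 7 mice (2.81) and Dlg4 in 4 of 7. For microglia-like nuclei it was 4 of 7 for Map2 and 5 of 7 for Dlg4. As levels, Dlg4 measured 96.4 to 184 CPM in NSC/astrocyte-like nuclei (median 141) and Map2 measured 607 to 734 CPM (median 647). In low-count barcodes Map2 averaged 1179 CPM in Tsc2wt/wt and 1142 CPM in Tsc2mut/mut mice, so in CPM its nuclear level lay below the low-count level. Both patterns were noticed in the values and carry no test.

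Oligodendrocyte-like nuclei held Nrgn at 9.51% of its low-count share, Dlg4 at 14.5% and Map2 at 37.2%, with mitochondrial genes at 17.8%. Nrgn was below the mitochondrial percentage in 7 of 7 mice, at a median of 0.581 times. Microglia-like nuclei held Nrgn at 14.6% (3.72% to 31.6%), Camk2n1 at 16.9% and Map2 at 18.0%, near the 18.5% of mitochondrial genes. Ppp1r9b stood highest in microglia-like nuclei, at 34.7%, above the median of the other members in 7 of 7 mice (median ratio 1.85). This was not particular to microglia-like nuclei. Ppp1r9b was also above that median in 7 of 7 mice in NSC/astrocyte-like (1.74) and choroid plexus-like nuclei (1.38). The same held in 6 of 7 mice in oligodendrocyte-like (1.52) and 4 of 4 in endothelial-like nuclei (2.92). In ependymal-like nuclei it held in 4 of 6 mice, and in progenitors of oligodendrocytes in 1 of 3. Ependymal-like nuclei held Nrgn at 2.37% to 22.3% and Map2 at a median of 57.8% in 6 mice, with mitochondrial genes at 23.0%.

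Choroid plexus-like nuclei had the lowest median percentage of Nrgn among the cell types, 4.69% of its low-count share in 7 mice (26.1 to 154 CPM), at a median of 0.307 times the mitochondrial percentage. Nrgn, Camk2a, Ddn, Shank1, Map2, Ppp1r9b and Psd were each below the mitochondrial percentage in 7 of 7 mice. Camk2n1 stood higher there, at 11.5%, and Dlg4 at 13.4%, above the median of the other members in 7 of 7 mice by a median of 1.68 and 2.01 times. The choroid plexus-like clusters of 302 and 191 barcodes held 228 and 1579 CPM of the nuclear RNA Malat1, as pooled values. The other clusters held 10864 to 48191 CPM, and low-count sums held 477 to 2434 CPM. Whether the choroid plexus-like barcodes are nuclei was not tested, so their low member levels are not read as nuclear. In endothelial-like nuclei (4 mice) Nrgn stood at 7.17% and Map2 at 13.2%, and in progenitors of oligodendrocytes (3 mice) the values were 7.94% and 115%. Counts were small in these last classes, with 27 and 29 UMIs of Nrgn in all.

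**Figure D4:**
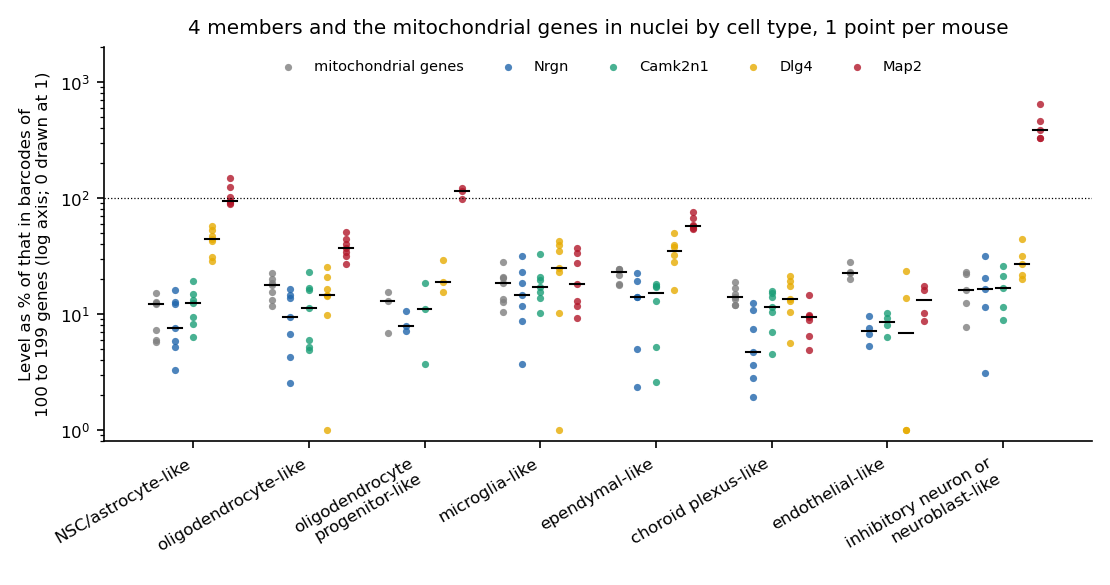
Share of UMIs of the mitochondrial genes and of Nrgn, Camk2n1, Dlg4 and Map2 in nuclei of 8 cell types, as percent of the share in low-count barcodes of the same mouse (log axis, zero drawn at 1), with 1 point per mouse with at least 10 nuclei of the type, a black line at the median and a dotted line at 100%. Nrgn medians lie between 4.69% and 16.5%, while those of Map2 range from 9.50% in choroid plexus-like nuclei to 384% in inhibitory neuron- or neuroblast-like nuclei. Shares are of all UMIs with mitochondrial ones included, so 100% does not mean an equal CPM.

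In nuclei with neuronal markers the members differed among themselves. Inhibitory neuron- or neuroblast-like nuclei held Map2 at 2469 to 3502 CPM (5 mice, median 2729), 384% of its low-count share, but Nrgn at 229 CPM, 16.5% of its low-count share, and Dlg4 at 27.0%. Arc had 0 UMIs in these nuclei of all 5 mice, which allows up to 38.1 to 98.3 CPM at 3 counts per library. A cluster of 72 nuclei with 9 of 12 excitatory and 9 of 12 striatal projection neuron markers stayed unnamed and held 125 CPM of Nrgn and 317 CPM of Camk2n1, with 655 CPM of Camk2a, 824 CPM of Map2 and 868 CPM of Snap25, as pooled values over mice. Its Nrgn was close to that of the cluster of 565 NSC/astrocyte-like nuclei, at 146 CPM, while its Snap25 was far above the 27.7 CPM found there. Of the 72 nuclei 1, 3, 4 and 5 came from Tsc2wt/wt mice 1 to 4 and 26, 9, 23 and 1 from Tsc2mut/mut mice. The pooled values of that unnamed cluster thus mostly describe Tsc2mut/mut mice.

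The highest pooled levels were in another unnamed cluster of 91 nucleus-like barcodes, led by Fam181b, Tubb2b and Aldoc. It held 1175 CPM of Nrgn, 1990 CPM of Camk2a and 3339 CPM of Camk2n1 and was the highest of the 16 clusters for 9 of the 10 members, Map2 being the exception. It had 10 of 12 NSC/astrocyte markers raised, and also 5 of 12 excitatory neuron markers. Of its barcodes 19, 4, 33 and 20 came from Tsc2wt/wt mice 1 to 4 and 5, 9, 1 and 0 from Tsc2mut/mut mice, so the pooled levels mostly describe Tsc2wt/wt mice. Its median barcode had 764 UMIs and its mitochondrial share was 14.2%, the fewest UMIs and the highest share of any cluster.

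Over 24 sums (8 mice in the nucleus-like, mitochondria-rich and low-count classes) the genes whose level was most like that of Nrgn included Pcsk1n, a neuroendocrine precursor (Pearson r = 0.998 of log2 CPM), Kif5a (0.997), the vesicle protein gene Nrsn1 and Zfp365 (each 0.996). Among the members r was 0.997 for Psd, 0.996 for Camk2n1, 0.981 for Dlg4, 0.895 for Arc and 0.849 for Map2. The 24 sums come in threes from the same libraries and mostly follow the class, so these values are a description over 6676 genes and no test. Within the 8 mitochondria-rich sums alone r with Nrgn was 0.91 for Camk2a, 0.88 for Ddn, 0.75 for Pcsk1n, 0.56 for Psd, 0.42 for Kif5a and 0.35 for Dlg4.

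The genotypes were compared in each class over 4 mice against 4. In mitochondria-rich barcodes 0 of 10 members were called by edgeR, where 0.352% of all genes were called in either direction (35 of 9933) and 1252 genes had an unadjusted p under 0.05. Nrgn averaged 2490 ± 334 CPM (SD, n = 4) in Tsc2wt/wt and 2576 ± 391 CPM (SD, n = 4) in Tsc2mut/mut mice, with a log2 fold of mutant over wild type of 0.04 ± 0.10 (SE) and an exact two-sided permutation p of 0.571. The log2 folds of the members ran from -0.34 for Dlg4 to 0.30 for Arc, with a median of -0.07. Camk2a (-0.02 ± 0.22), Camk2n1 (-0.12 ± 0.11) and Map2 (-0.00 ± 0.09) lay near 0. With 70 possible assignments of the mice, the smallest p of the permutation test is 0.0286.

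Dlg4 came nearest to a difference. Its mitochondria-rich values of 756, 672, 818 and 840 CPM in Tsc2wt/wt and 668, 696, 562 and 511 CPM in Tsc2mut/mut mice overlapped through 1 mouse of each genotype. The means were 771 ± 75.1 and 609 ± 87.1 CPM (SD, n = 4 each), and the log2 fold was -0.34 ± 0.10 with an edgeR p of 0.0023, an adjusted p of 0.144 and an exact permutation p of 0.0571. It passed the threshold without the filter on low counts (-0.35, adjusted p = 0.045) and without Tsc2mut/mut replicate 2 (-0.43, adjusted p = 0.0417), and over all alternatives the adjusted p ran from 0.0417 to 0.41. In low-count barcodes the log2 fold of Dlg4 was -0.18 ± 0.11 (adjusted p = 0.759). The scaffold Shank1 and the exchange factor Psd also had negative folds in mitochondria-rich barcodes, -0.26 ± 0.14 (adjusted p = 0.481) and -0.20 ± 0.11 (adjusted p = 0.46).

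Arc varied most between mice. It measured 115, 89.9, 59.6 and 64.3 CPM in the mitochondria-rich barcodes of Tsc2wt/wt mice 1 to 4 and 157, 143, 91.0 and 12.8 CPM in those of Tsc2mut/mut mice, and its log2 fold was 0.30 ± 0.63 (adjusted p = 0.904 in edgeR). The low value of Tsc2mut/mut replicate 4 rested on 25 UMIs, and low-count barcodes of that mouse gave 14.8 CPM against 47.6 to 149 CPM in the others. Of 4 other immediate early genes looked up after this was seen, Egr1, Fos and Nr4a1 were also lowest in the mitochondria-rich barcodes of this mouse, with Egr1 at 35.8 and Fos at 5.11 CPM. Junb was not, with 14.3 CPM there and a lower level in Tsc2wt/wt replicate 1. The lowest Tsc2wt/wt levels of Egr1, Fos and Nr4a1 in mitochondria-rich barcodes were 68.9, 5.57 and 7.09 CPM, so Fos was close. Counts were small, with 251 UMIs of Fos and 230 of Nr4a1 in this class over all 8 mice. Nucleus-like barcodes of Tsc2mut/mut replicate 4 had 0 UMIs of Arc, which allows up to 3.38 CPM at 3 counts. Without this mouse the log2 fold of Arc in mitochondria-rich barcodes was 0.64, still not called.

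In low-count barcodes 0 of 10 members were called where 0.228% of genes were (27 of 11846), with log2 folds from -0.18 to 0.17. Barcodes with under 100 genes numbered 3 to 47889 (median 35744.5) in Tsc2wt/wt libraries and 0 to 21383 (median 10.5) in Tsc2mut/mut libraries. The low-count class thus took a different part of the barcodes in the 2 genotypes, and the effect of this was not tested. In nucleus-like barcodes 0 of the 9 members tested were called, as were 0% of 11048 genes. Arc did not pass the filter on low counts there. The log2 folds ran from -0.39 for Map2 to 0.71 for Camk2n1, with a median of 0.50 and 0.04 over all genes. At an unadjusted p under 0.05 edgeR gave 168 genes, none a member, and DESeq2 called 1 gene.

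In non-neuronal nuclei 0 of the 9 members tested were called. Camk2n1 measured 268, 478, 270 and 283 CPM in Tsc2wt/wt mice 1 to 4 and 693, 375, 733 and 453 CPM in Tsc2mut/mut mice, so that 2 mutant mice lay above all wild type mice. The means were 325 ± 102 and 563 ± 176 CPM (SD, n = 4 each), with a log2 fold of 1.01 ± 0.44 and an exact permutation p of 0.0857. Camk2a gave 1.22 ± 0.46 (exact permutation p = 0.171) and Nrgn gave 1.01 ± 0.47 (exact permutation p = 0.143). Of 9 members tested 8 had positive folds (median 0.96, against 0.03 over all genes) and 5 had an unadjusted p under 0.05, while Map2 had -0.33 ± 0.47. Members can move together over mice, as r with Nrgn in low-count sums ran from 0.31 for Arc to 0.98 for Camk2a. These counts are therefore not separate results. Adjusted p-values were 0.886 to 0.888, 0% of 10698 genes were called by edgeR, 229 had an unadjusted p under 0.05 and DESeq2 called 2 genes.

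The mitochondrial share of the same sums moved alongside, from 4.80% to 7.66% in Tsc2wt/wt mice and from 7.35% to 9.09% in Tsc2mut/mut mice, and its part in these folds was not tested. Their makeup differed as well, since most nuclei of Tsc2mut/mut replicate 4 were choroid plexus-like. Without that mouse the median log2 fold was 0.84, without choroid plexus-like nuclei it was 0.81, and without Tsc2wt/wt replicate 2 it was 1.19. Under these settings 3, 7 and 5 of the 9 members had an unadjusted p under 0.05 in edgeR. These sums also leave out the unnamed cluster of 91 barcodes described above, which came mostly from Tsc2wt/wt mice and was left unnamed by a rule set after values were seen. With it the median log2 fold was 0.53, Nrgn had 0.53 and Camk2n1 had 0.69, and 0 members had an unadjusted p under 0.05 where 5 had one without it. The number of all genes at that threshold is not given here for any of these settings. The counts of members under them thus cannot be set against a background.

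**Figure D5:**
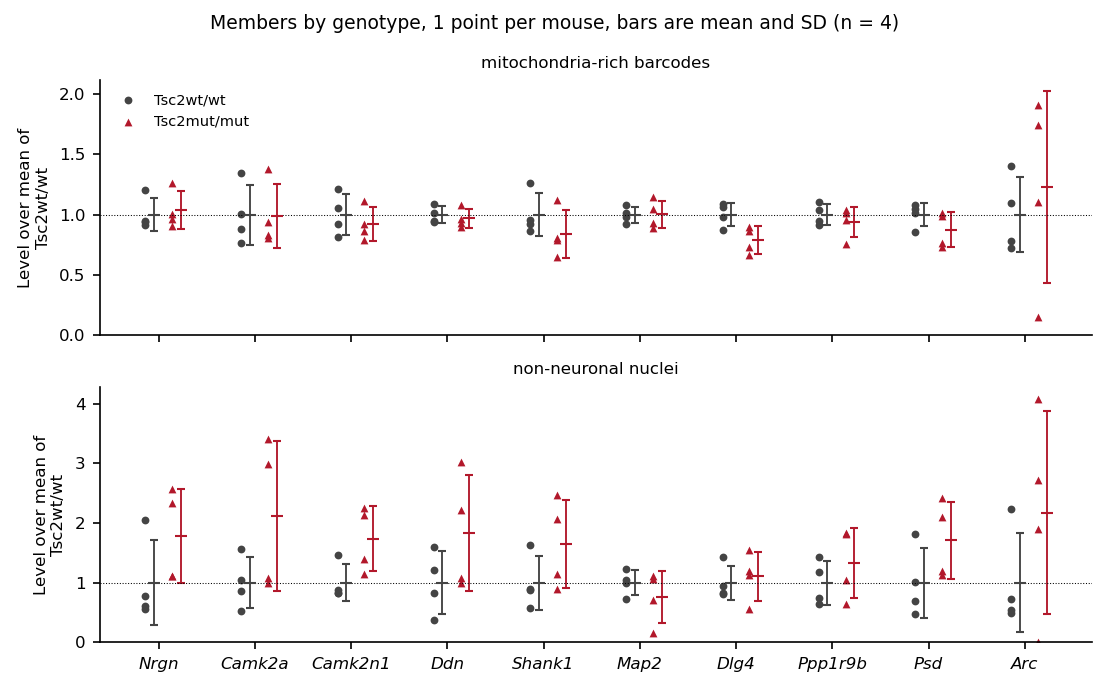
Level of each member in each mouse divided by the mean of the 4 Tsc2wt/wt mice, in mitochondria-rich barcodes (top) and non-neuronal nuclei (bottom), with circles for Tsc2wt/wt, triangles for Tsc2mut/mut and bars for the mean and SD of 4 mice. The genotypes overlap for every member in both classes, and the lowest Arc point in the top panel is Tsc2mut/mut replicate 4, at 12.8 CPM.

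Whether the genotype difference itself differed between mitochondria-rich and nucleus-like barcodes was tested with an interaction term. Of the 10 members 0 were called, as were 0% of 12939 genes in edgeR and 0 in DESeq2, with 388 genes at an unadjusted p under 0.05 in edgeR. The differences of log2 folds ran from -0.88 ± 0.52 for Shank1 (adjusted p = 0.834 in edgeR) to 0.57 ± 0.57 for Map2. For Nrgn the difference was -0.54 ± 0.61, and the standard errors of the 10 members ran from 0.46 to 0.63.

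The other lists were compared by genotype in the same fits. In all 4 classes 0 genes passed of the dendritic, presynaptic, striatal, astrocyte and nuclear noncoding lists, and of the excitatory neuron genes only Prox1, a transcription factor of the hippocampal dentate gyrus, was called, in mitochondria-rich barcodes of Tsc2mut/mut mice (1.14 ± 0.26, adjusted p = 0.042 in edgeR). The median log2 fold in mitochondria-rich barcodes was 0.02 over 18 other dendritic mRNAs and -0.02 over 16 presynaptic genes.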

How the data were processed

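Nuclei of the V-SVZ were sequenced with the 10x 3′ chemistry from 8 mice, 1 library each, after tdTomato sorting and with doublets gated out at the sort. The deposited matrices hold raw UMI counts per gene and barcode, made by the authors with Cell Ranger 7.0.1 set to return 60000 barcodes per library, which keeps barcodes that hold little RNA. GRCm38 and mm10 are named in the submitters' processing notes, as is Seurat 4. Whether introns were counted is not given in the sources used here. Whether every count of this 3′ chemistry came from a 3′ end is thus not known. Every test compared levels within a gene. Shares and levels set side by side between genes are descriptions and were not tested.

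Barcodes were classed as given in the results. Nucleus-like barcodes were clustered with scanpy 1.11.5 and leidenalg 0.10.2 (2000 variable genes, 30 components, 20 neighbours, resolution 0.8) without the members, the other dendritic list, mitochondrial, ribosomal and sex-linked genes. A cluster was named from marker lists when at least 3 markers were raised 1.5-fold, at least 1.5 times as many as of any other list, and it held at least 50 nuclei, unless it was shallow and none of its leading genes was a marker, a rule set after clusters and values had been seen. No doublet caller was run.

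UMIs were summed per mouse and class without the 13 mitochondrial genes and tested with edgeR 4.0.16 (TMM, filterByExpr, robust quasi-likelihood, Benjamini-Hochberg over all genes, threshold 0.05) in R 4.3.3. Class comparisons had mouse as a term, and genotype comparisons had no covariate. Single members were also tested on log2(CPM + 1) with exact two-sided sign-flip tests within mice or exact permutations over genotype labels. The mouse is the replicate throughout, and no p-value is computed over barcodes. Limits for 0 counts are 3 counts per library and cover counting error only. DESeq2 1.42.0, other scalings, filters, limits and left-out mice were alternatives. The scripts were tested on simulated counts.

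All 10 members are named. Of the other lists (other dendritic and postsynaptic mRNAs, presynaptic genes, striatal and excitatory neuron genes, nuclear long noncoding RNAs, astrocyte cytoplasmic transcripts), up to 4 passing genes with the largest changes could be named, with 4 comparators for spread and the 5 genes most like Nrgn with a mean of at least 20 CPM. Genes of activity, Snap25, Malat1 and Tsc2 were added after values were seen. Some genes that this rule names are not reported here. The members and lists were chosen with earlier results of these data known.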

Additional observations from a re-analysis of the deposited data

Results flagged for a closer look

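A single mouse stood apart from the other 3 of its genotype in 6 of 80 groups of 4 mice (10 members, 4 barcode classes, 2 genotypes), by a gap above Dixon's critical value, where chance gives about 4 (1 in 20). All 6 are Tsc2wt/wt mice. Nrgn was higher in replicate 4, at 2987 CPM in mitochondria-rich barcodes against 2280 to 2364 CPM and at 2527 CPM in low-count barcodes against 2006 to 2081 CPM. In non-neuronal nuclei replicate 2 was higher for 3 members, with 163 CPM of Nrgn against 44.8 to 62.2 CPM, 478 CPM of Camk2n1 against 268 to 283 CPM and 7.79 CPM of Arc against 1.69 to 2.52 CPM. Arc had 20 UMIs in these nuclei over all Tsc2wt/wt mice, so its values lie near the floor. In nucleus-like barcodes replicate 1 was lower for Ppp1r9b, with 30.7 CPM against 60.6 to 66.3 CPM.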

How the results depend on the processing

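Of 480 values of members in the 3 class comparisons under alternatives, 477 were still called in the same direction, and the other 3 were those of Arc against low-count barcodes. The number of members called by genotype in mitochondria-rich barcodes moved from 0 to 1 (Dlg4) without a filter on low counts, and ranged from 0 to 1 as single mice were left out. The cause was not tested. Under the replicate block 0 members were called by genotype in each of the 4 classes. Over all genes of mitochondria-rich barcodes 18 were called by genotype with the block against 35 without it, 142 without a filter, 23 with DESeq2, 14 with at least 500 genes per barcode and 19 to 124 as single mice were left out, the most without Tsc2mut/mut replicate 2. In low-count barcodes 27 became 35 with the block, 109 without a filter and 5 among the 20000 barcodes with the fewest UMIs, and 17 to 39 as single mice were left out. Between low-count and mitochondria-rich barcodes 1742 genes became 839 with DESeq2 and 996 with those 20000 barcodes. Without a filter the interaction gave 1 gene. Equal replicate numbers were not taken as pairs, since in no class did the deviations from the genotype mean correlate above 0.1 for every number. For numbers 1 to 4 the correlations were -0.06, -0.17, -0.12 and -0.09 in mitochondria-rich, -0.11, -0.08, -0.12 and -0.12 in low-count and -0.69, 0.25, 0.44 and 0.19 in nucleus-like barcodes, and -0.7, 0.16, 0.47 and 0.26 in non-neuronal nuclei. Omission of choroid plexus-like nuclei, addition of the unnamed cluster with astrocyte markers and all alternatives of the interaction were chosen after seeing the data. Depth limits Arc, with 83 UMIs in all nucleus-like barcodes, and with 4 mice per genotype the permutation test cannot go below 0.0286.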
